A study of Homo sapiens with 8 samples.

Results

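The proteasome genes of MRC5 fibroblasts were followed after exposure to 8-oxoguanine, the free oxidised guanine base. They comprised every gene whose only symbol in the array annotation begins with PSMA, PSMB, PSMC, PSMD, PSME or PSMF and a digit, which gave 39 genes of 11963 named genes on the 6 h arrays and 35 of 7713 on the 12 h arrays, all 35 of them also on the 6 h arrays. Where a gene had several probe sets, the one used was chosen by its mean signal over all arrays of that time (the brightest). The difference between treatments did not enter that choice. PSMC3IP and PSME3IP1 share these letters through a partner but encode no proteasome protein, which left 37 proteasome proteins at 6 h and 34 at 12 h. A further 5 probe sets at 6 h and 1 at 12 h name a proteasome gene together with another gene, among them that of PSME2, and were not analysed here.

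MRC5 is a diploid fibroblast line from human lung, grown here in medium with 10% serum. The 4 groups were cells given 10 µM 8-oxoguanine and read at 6 h (1 array) or 12 h (3 arrays), and cells given only its solvent, called mock, read at 6 h (1 array) or 12 h (3 arrays). The labels call the 12 h arrays technical replicates by extract, and do not say whether separate cultures were extracted. The p-values therefore reflect the scatter among 3 extracts per treatment, which may be technical only. The times used different array types and were analysed apart, each against its own mock.

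The values were 1 signal per probe set and array, an intensity on a linear scale that the authors had scaled to a common mean. At 12 h, probe sets with a mean log2 signal below the 40th percentile (a signal of 93.9) were left out, which kept 5248. All 34 proteasome proteins were kept, and PSMC3IP was not: its signals were 41, 57 and 43 in treated cells, against 124, 88 and 109 in mock cells. Groups were compared with limma over all kept probe sets, with p-values adjusted by Benjamini-Hochberg over the table and 0.05 as the threshold, and every adjusted p below is from that fit. Of 10 fibroblast markers measured at 12 h, all were kept, with summed signals of 64482 to 78569 in treated and 65322 to 78406 in mock cells. Of these, 3 passed the threshold higher (PDGFRA, PDGFRB and LUM) and 1 lower (S100A4), against 6.59% and 6.65% of all kept probe sets. Of 16 epithelial, endothelial and blood cell markers 6 were kept, with summed signals over all 16 of 4790 to 4981 in treated and 4597 to 4925 in mock cells. The 6 kept were KRT8, KRT18, KRT19, PECAM1, CD3E and HBB. KRT18 made up most of these sums, at 3943 ± 143 in treated and 3639 ± 128 in mock cells (SD, n = 3 each). The blood cell markers CD3E (123 in treated and 112 in mock cells) and HBB (214 and 221) were above the limit. PTPRC, the pan-leukocyte surface marker, averaged 16.5 ± 12.4 in treated and 17.3 ± 17.8 in mock cells (SD, n = 3 each), below the limit. None of these markers was listed at 0 at 12 h. Among them KRT19, a keratin, fell to 116 ± 21.1 in treated cells, against 277 ± 6.24 in mock cells (SD, n = 3 each, adjusted p = 0.00145), and its part in the results below was not tested. The other kept keratins, KRT8 and KRT18, were higher in treated cells without overlap and did not pass (adjusted p = 0.117 and 0.284). KRT8 averaged 164.8 ± 26.5 in treated and 116.2 ± 6.61 in mock cells (SD, n = 3 each). In RNA from whole cultures, fewer cells of a type and less RNA per cell cannot be told apart.

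The proteasome degrades proteins tagged with ubiquitin. Its core particle is a barrel of alpha rings, which gate the entrance, and beta rings, which hold the proteolytic sites, and the regulatory particle at its end recognises the ubiquitin chain, removes it, unfolds the substrate with a ring of ATPases and feeds it in. In the immunoproteasome, which interferon induces in many cells including fibroblasts, PSMB8, PSMB9 and PSMB10 take the place of PSMB5, PSMB6 and PSMB7 and produce peptides for MHC class I. PSME1 and PSME2 form an activator cap that interferon also induces. NFE2L1 raises transcription of proteasome genes when proteasome activity falls, and NFE2L2, the regulator of the antioxidant response, acts on some of them.

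Promoters are shown for a gene that fell at 12 h by a large margin over its error (PSMD14), another that fell and carries an antioxidant response core (PSMD5), the genes that rose (PSME1, PSMB8) and an immunoproteasome gene that did not pass the test (PSMB10). Each runs from 150 bases before the RefSeq start site to 30 after it, 5′ to 3′ on the gene's strand, in assembly GRCh38.p14. Capitals mark matches on either strand to CCAAT (the CCAAT box), TGACNNNGC (the core of the antioxidant response element, bound by NFE2L2 and NFE2L1 with small MAF proteins) or GAAANNGAA (the core of the interferon response element). The windows are chr2:161308275-161308454 (PSMD14, plus strand), chr9:120842893-120843072 (PSMD5, minus strand), chr14:24136044-24136223 (PSME1, plus strand), chr6:32844018-32844197 (PSMB8, minus strand, 1 of its 2 start sites) and chr16:67936821-67937000 (PSMB10, minus strand).
PSMD14: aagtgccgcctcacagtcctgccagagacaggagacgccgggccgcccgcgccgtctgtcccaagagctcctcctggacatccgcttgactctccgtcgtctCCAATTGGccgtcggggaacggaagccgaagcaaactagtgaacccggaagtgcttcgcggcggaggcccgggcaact
PSMD5: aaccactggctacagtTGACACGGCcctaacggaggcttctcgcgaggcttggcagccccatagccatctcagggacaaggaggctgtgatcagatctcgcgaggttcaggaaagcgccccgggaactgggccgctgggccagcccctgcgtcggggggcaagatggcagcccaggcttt
PSME1: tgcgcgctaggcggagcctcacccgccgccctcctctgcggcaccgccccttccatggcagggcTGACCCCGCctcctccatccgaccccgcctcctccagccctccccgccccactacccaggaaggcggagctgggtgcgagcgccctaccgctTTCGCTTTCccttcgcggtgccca
PSMB8: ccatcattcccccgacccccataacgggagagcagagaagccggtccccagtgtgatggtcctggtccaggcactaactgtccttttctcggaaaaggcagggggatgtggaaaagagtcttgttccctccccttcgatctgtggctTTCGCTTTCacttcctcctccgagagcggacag
PSMB10: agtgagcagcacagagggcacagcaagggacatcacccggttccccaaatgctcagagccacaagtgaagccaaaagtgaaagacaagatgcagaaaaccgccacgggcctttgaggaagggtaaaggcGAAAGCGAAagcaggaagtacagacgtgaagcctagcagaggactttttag
The PSMD14 window holds the CCAAT box once on each strand, overlapping. The window of the other PSMB8 start site, which is not printed, holds none of the 3 motifs. The PSME1 window holds both an antioxidant response core and an interferon response core. RefSeq promoters were matched for 30 of the 34 proteasome proteins measured at 12 h, in 36 windows. The interferon response core was found in 5 of these (PSMB4, PSMB8, PSMB10, PSMC2 and PSME1), against 4.78% of 35116 windows of all genes. The antioxidant response core was found in 7 of the 36 (PSMA4, PSMB3, PSMB9, PSMD3, PSMD5, PSMD9 and PSME1), against 8.84% of all windows. The CCAAT box was found in 11 of them, against 25.4%. A match describes these letters only, and no other motif was searched.

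At 12 h, 8 of the 34 proteasome proteins passed the threshold lower in treated cells (23.5%, against 6.65% of all 5248 kept probe sets) and 2 passed it higher (5.88%, against 6.59%). The 8 were 2 alpha subunits of the core, 4 subunits of the regulatory particle, the assembly chaperone PSMD5 and the activator PSME3, and the 2 higher genes both belong to the immunoproteasome and its cap. Among the 8 falls, the smallest was that of PSMC1, which fell by 15.3% of the mock signal, and the largest that of PSME3, which fell by 28.9%. The log2 fold change was below 0 in 30 of the 34 genes (88.2%, against 48.6% of all kept probe sets), with a median of -0.17 beside 0.0072 over all of them. The 3 treated arrays lay below the 3 mock arrays without overlap for 16 of the 34 genes (47.1%, against 16.5% of all), and above them for 3 genes (8.82%, against 17.4%). Leaving out 1 array at a time left between 1 and 5 genes lower: 3, 1 and 5 without treated arrays 1, 2 and 3, and 3, 4 and 2 without mock arrays 1, 2 and 3. PSMD14 and PSME1 were the members that kept their call in all 6 of these fits and in all 7 other settings tried. Of the other 8, PSMD2 kept it in 3 of the 6 fits, PSMA5, PSMB8, PSMD1 and PSME3 in 2, PSMA3 and PSMD5 in 1 and PSMC1 in 0.

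**Figure D1:**
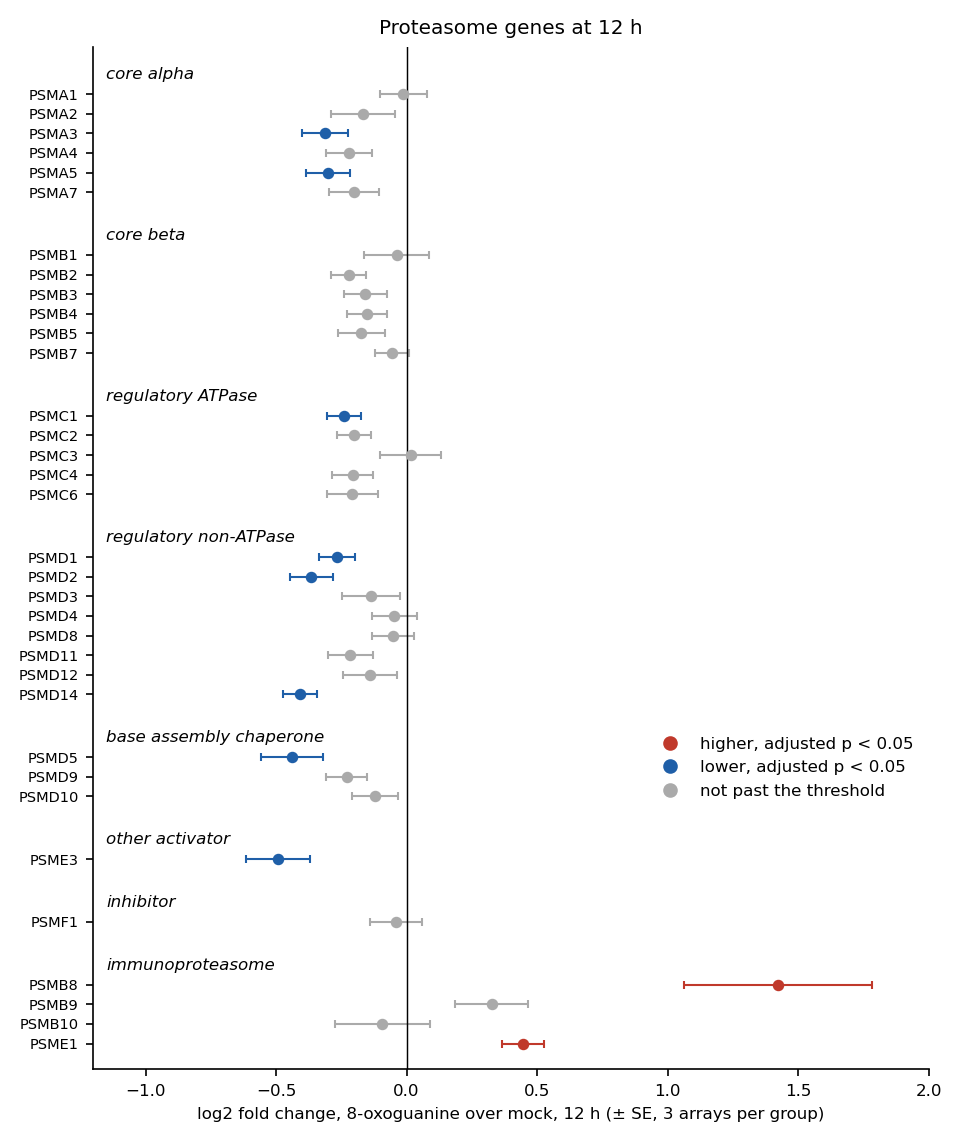
Log2 fold change of each of the 34 proteasome proteins at 12 h, 8-oxoguanine over mock, by role (points, limma estimate; bars, ± 1 SE; 3 arrays per group). Points right of the 0 line are higher in treated cells. PSMB8 (1.42) and PSME1 (0.45) stand to the right, and 30 of 34 points stand left of 0.

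Core particle genes had small negative differences throughout. All 12 measured at 12 h had a log2 fold change below 0 (against 48.6% of all kept probe sets), from -0.31 to -0.01 with a median of -0.17. Of these, 2 passed the threshold lower (16.7%, against 6.65% of all). PSMA3, an alpha ring subunit, had signals of 1721, 1586 and 1384 in treated cells, against 2040, 1868 and 1898 in mock cells. PSMA5, also of the alpha ring, had 1325, 1421 and 1540 in treated cells, against 1699, 1688 and 1894 in mock cells. In both genes every treated array was below every mock array. Their log2 fold changes were -0.31 (SE 0.09, adjusted p = 0.0482) and -0.30 (SE 0.08, adjusted p = 0.0412), and both lost the call with quantile normalization, with no filter and with no intensity trend (adjusted p up to 0.115 for PSMA3 and 0.103 for PSMA5). PSMA3 also lost it with median centring (adjusted p = 0.0679) and with the replicate number as a block (adjusted p = 0.05001).

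The other alpha subunits were PSMA1, PSMA2, PSMA4 and PSMA7. PSMA4 and PSMA7 also did not overlap between groups, with log2 fold changes of -0.22 (adjusted p = 0.128) and -0.20 (adjusted p = 0.208). PSMA1 was close to equal, at 2821 ± 117 in treated and 2858 ± 343 in mock cells (SD, n = 3 each).

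None of the 6 beta subunits passed the threshold in limma, and 1 had an unadjusted p under 0.05, as did 28.7% of all kept probe sets. That was PSMB2, a beta subunit without a proteolytic site, with signals of 2165, 2155 and 2226 in treated cells, against 2510, 2687 and 2445 in mock cells. Its groups did not overlap, and its log2 fold change was -0.22 (SE 0.07, adjusted p = 0.0559). It passed with median centring (adjusted p = 0.0366) and with a filter at the 60th percentile (adjusted p = 0.0393), and not in the other settings, with an adjusted p of up to 0.170. PSMB5, which carries the chymotrypsin-like site, had 2775, 2742 and 3405 in treated cells, against 3210, 3399 and 3402 in mock cells. Treated array 3 lay at the level of the mock arrays, and the log2 fold change was -0.17 (SE 0.09, adjusted p = 0.246), or -0.27 (adjusted p = 0.0357) without that array. PSMB7, which carries the trypsin-like site, averaged 2392 ± 36.6 in treated and 2486 ± 110 in mock cells (SD, n = 3 each), with overlap. PSMB6, the caspase-like subunit, was not on the 12 h arrays.

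The regulatory particle showed the same direction with somewhat more genes past the threshold, although the difference from the core was not tested. Of its 13 genes, 12 had a log2 fold change below 0 (92.3%, against 48.6% of all kept probe sets), with a median of -0.21 and a range from -0.41 to 0.02. In 8 the treated arrays lay below the mock arrays without overlap (61.5%, against 16.5% of all), and 4 passed lower (30.8%, against 6.65%). PSMD14, the metalloprotease that cuts the ubiquitin chain off the substrate, had signals of 1735, 1739 and 1639 in treated cells, against 2238, 2298 and 2246 in mock cells. The groups were far apart beside their spread, at 1704 ± 56.5 in treated and 2261 ± 32.8 in mock cells (SD, n = 3 each). Its log2 fold change was -0.41 (SE 0.07, adjusted p = 0.00375), and its adjusted p was at most 0.0252 in every setting tried.

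PSMD1 and PSMD2 are the large scaffold subunits of the base, on which ubiquitin receptors and shuttle proteins dock. PSMD2 had 2091, 2088 and 2420 in treated cells, against 2649, 2970 and 2867 in mock cells, a log2 fold change of -0.36 (SE 0.08, adjusted p = 0.0178). PSMD1 had 1689, 1628 and 1718 in treated cells, against 1945, 1983 and 2129 in mock cells, a log2 fold change of -0.27 (SE 0.07, adjusted p = 0.0321). Neither gene overlapped between groups.

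PSMC1, an ATPase of the base, had 2388, 2515 and 2496 in treated cells, against 2804, 3042 and 2889 in mock cells. Its log2 fold change was -0.24 (SE 0.07, adjusted p = 0.0426), and although the groups did not overlap, the call was lost when any single array was left out. The ATPases PSMC2 (-0.20, adjusted p = 0.0670), PSMC4 (-0.21, adjusted p = 0.116) and PSMC6 (-0.21, adjusted p = 0.196) did not overlap between groups either and did not pass. PSMC3 was the ATPase without a difference, at 1482 ± 63.4 in treated and 1481 ± 267 in mock cells (SD, n = 3 each).

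Of the remaining non-ATPase subunits, PSMD11, a lid subunit, did not overlap between groups (-0.22, adjusted p = 0.130). PSMD3, PSMD8 and PSMD12, also of the lid, and PSMD4, the ubiquitin receptor, overlapped, with log2 fold changes between -0.14 and -0.05.

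The chaperones that assemble the base of the regulatory particle were PSMD5, PSMD9 and PSMD10. PSMD5, whose protein has also been described as an inhibitor of the assembled proteasome, had 646, 690 and 677 in treated cells, against 768, 1080 and 907 in mock cells. The groups did not overlap, but the mock arrays spread widely (670.8 ± 22.4 in treated and 918.4 ± 156 in mock cells, SD, n = 3 each). Its log2 fold change was -0.44 (SE 0.12, adjusted p = 0.0376). PSMD9 had 774, 763 and 841 in treated cells, against 921, 949 and 916 in mock cells, without overlap, and did not pass (-0.23, SE 0.08, adjusted p = 0.0813). PSMD10, also known as the oncoprotein gankyrin, overlapped (-0.12, adjusted p = 0.421).

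PSME3 encodes a nuclear activator cap that does not need ubiquitin, and had the most negative log2 fold change of all members kept. Its signals were 297, 265 and 252 in treated cells, against 367, 422 and 356 in mock cells. Every treated array lay below every mock array, and the log2 fold change was -0.49 (SE 0.12, adjusted p = 0.0263). PSMF1, which encodes a protein that inhibits the core particle in vitro, averaged 626.9 ± 38.9 in treated and 646.8 ± 63.6 in mock cells (SD, n = 3 each), with overlap (-0.04, SE 0.10, adjusted p = 0.834).

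**Figure D2:**
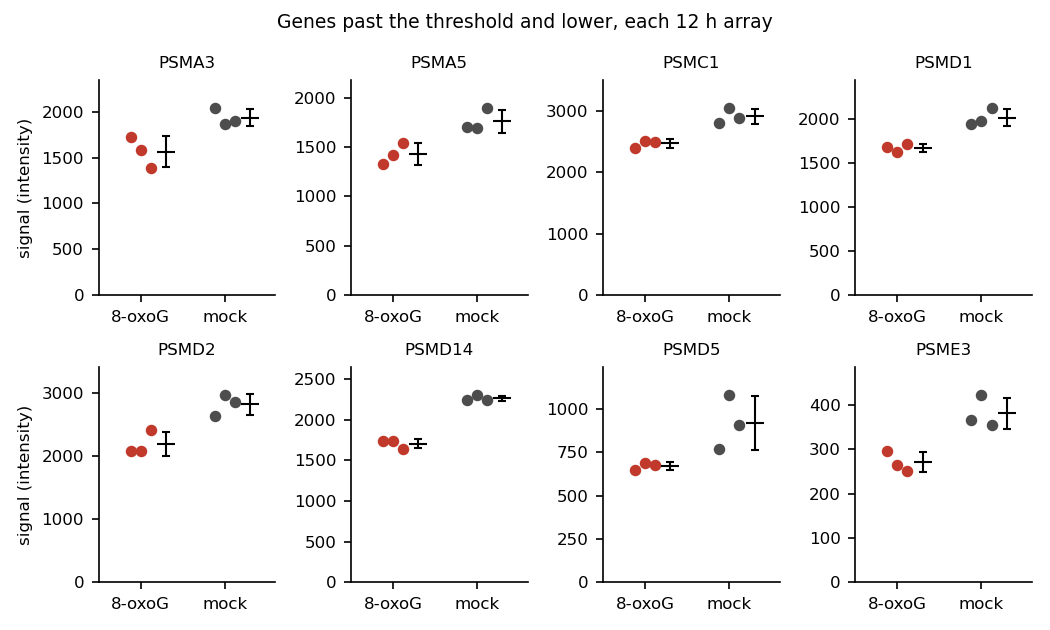
Signal (intensity, linear axis from 0) of the 8 proteasome genes past the threshold and lower at 12 h, one panel per gene (points, single arrays; cross and bar, mean ± SD, n = 3 per group; 8-oxoG, 8-oxoguanine). In all 8 panels the treated arrays lie below the mock arrays, as for PSMD14 at 1704 ± 56.5 in treated and 2261 ± 32.8 in mock cells.

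Of the 4 measured immunoproteasome genes, PSME1 and PSMB8 passed the threshold higher (50%, against 6.59% of all kept probe sets), and the others did not pass the test. The median log2 fold change over the 4 was 0.39, from -0.09 to 1.42. PSME1, a subunit of the interferon-inducible activator cap, had signals of 2262, 2367 and 2502 in treated cells, against 1587, 1823 and 1826 in mock cells. Every treated array lay above every mock array, with means of 2377 ± 120 in treated and 1745 ± 137 in mock cells (SD, n = 3 each). The log2 fold change was 0.45 (SE 0.08, adjusted p = 0.00631), a rise of 36.4%.

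PSMB8, the inducible counterpart of PSMB5, had 293, 277 and 308 in treated cells, against 118, 57 and 195 in mock cells. The groups did not overlap, but the mock arrays spread over a range as wide as 57 to 195, while the treated arrays lay close together (292.8 ± 15.4 in treated and 123.1 ± 69.2 in mock cells, SD, n = 3 each). The log2 fold change was 1.42 (SE 0.36, adjusted p = 0.0292), and it lay between 0.95 and 1.84 with 1 array left out. The call was lost without treated array 1, 2 or 3 and without mock array 1, with an adjusted p of at most 0.0842. With all arrays, it was also lost with no filter (adjusted p = 0.0666) and with no intensity trend (adjusted p = 0.0747).

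PSMB9, the inducible counterpart of PSMB6, had 214, 204 and 215 in treated cells, against 170, 159 and 177 in mock cells. Its groups did not overlap, but it did not pass (0.33, SE 0.14, adjusted p = 0.156). PSMB10, the inducible counterpart of PSMB7, had 196, 201 and 140 in treated cells, against 173, 208 and 185 in mock cells. Those values overlapped, the log2 fold change was -0.09 (SE 0.18, adjusted p = 0.795), and it was 0.07 without treated array 3. The signals of different probe sets are not amounts of RNA, so the levels of PSMB8 and PSMB5 were not compared with each other. The interferon response core printed above stands in the windows of PSME1 and PSMB10 and in 1 of the 2 windows of PSMB8. It was not found in the PSMB9 window. It also stands in the windows of PSMB4 and PSMC2, outside the immunoproteasome, with log2 fold changes of -0.15 and -0.20.

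**Figure D3:**
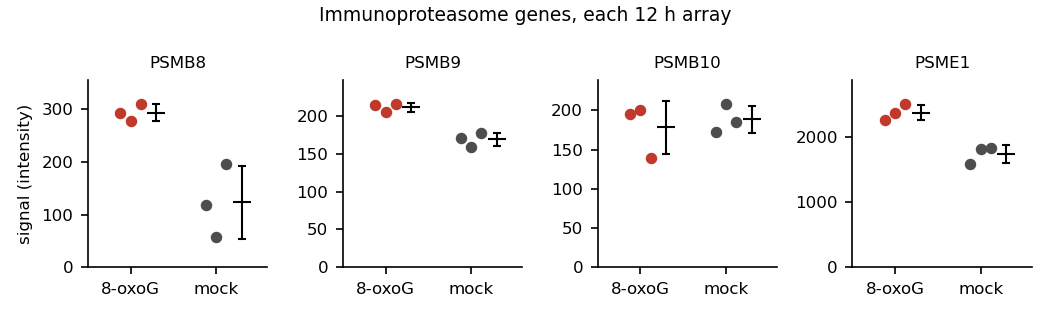
Signal (intensity, linear axes from 0) of the 4 immunoproteasome genes on each 12 h array (points, single arrays; cross and bar, mean ± SD, n = 3 per group). The treated arrays lie above the mock arrays for PSMB8, PSMB9 and PSME1, and overlap them for PSMB10 (178.5 ± 33.8 in treated and 188.6 ± 17.6 in mock cells).

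Array by array, the median over the 12 core genes, relative to the mean of the mock arrays on the log2 scale, was -0.21, -0.14 and -0.17 in treated cells, against -0.05, 0.02 and 0.01 in mock cells. Over the 13 regulatory particle genes it was -0.20, -0.23 and -0.21 in treated cells, against -0.05, 0.02 and 0.02 in mock cells. Over the 4 immunoproteasome genes it was 0.36, 0.36 and 0.44 in treated cells, against -0.05, -0.01 and 0.07 in mock cells. The 3 treated arrays were thus alike in each group of genes, and no single array set the direction. No test was made on these medians.

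The genes that act around the proteasome at 12 h are described from lists of its pathway. Of the 2 measured chaperones that assemble the core, PSMG1 and PSMG2, neither passed in limma, and 1 had an unadjusted p under 0.05. PSMG2 had a log2 fold change of 0.21 (adjusted p = 0.0869) and its groups did not overlap.

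Among 8 receptors and deubiquitinases that bind the proteasome, 1 passed, lower, where 6.65% of all kept probe sets passed lower. UCHL5, a deubiquitinase of the regulatory particle, had 431, 456 and 412 in treated cells, against 519, 578 and 581 in mock cells. The groups did not overlap, and its log2 fold change was -0.37 (SE 0.10, adjusted p = 0.0319). The call was kept in 1 of the 6 fits with an array left out (adjusted p up to 0.106), and lost with the replicate block (adjusted p = 0.0645) and with no intensity trend (adjusted p = 0.0511). ADRM1, the ubiquitin receptor that holds UCHL5 on the particle, averaged 1169 ± 129 in treated and 1586 ± 288 in mock cells (SD, n = 3 each), and did not pass (-0.43, adjusted p = 0.0560). SEM1, a small lid subunit whose symbol lies outside the family names, was close to equal (0.02, SE 0.10).

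Of 5 regulators of proteasome gene transcription, NFE2L2 passed, higher, where 6.59% of all kept probe sets passed higher. Its signals were 2543, 2774 and 2578 in treated cells, against 1837, 1277 and 2098 in mock cells, without overlap, and its log2 fold change was 0.63 (SE 0.15, adjusted p = 0.0247). The call was lost without any 1 of the 3 treated arrays, with an adjusted p of at most 0.0858. With all arrays, it was also lost with no filter and with no intensity trend (adjusted p up to 0.0795). NFE2L1 averaged 766 ± 42.3 in treated and 711 ± 63.6 in mock cells (SD, n = 3 each), with overlap (0.11, adjusted p = 0.485). Of the 7 genes with an antioxidant response core in the promoter, PSMD5 fell, PSME1 rose, and PSMA4, PSMB3, PSMB9, PSMD3 and PSMD9 did not pass. Over all 34 proteasome proteins 23.5% passed lower and 5.88% higher, and over all kept probe sets 6.65% and 6.59%. A link between this core and the calls was not tested.

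Upstream of the proteasome, 2 of 4 genes passed, both lower, where 6.65% of all kept probe sets passed lower. UBA1, the main enzyme that activates ubiquitin, had 3767, 3612 and 3773 in treated cells, against 5142, 5736 and 4757 in mock cells (log2 fold change -0.48, SE 0.08, adjusted p = 0.00416). VCP, the ATPase that pulls ubiquitin-tagged proteins out of complexes and membranes, had 1883, 1850 and 1683 in treated cells, against 2711, 2331 and 2773 in mock cells (-0.53, SE 0.09, adjusted p = 0.00412). Neither overlapped between groups, and both kept the call with every single array left out. UFD1, a cofactor of VCP, did not overlap and did not pass (-0.31, adjusted p = 0.0630).

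Of the class I presentation and interferon response genes, 12 of 16 measured were kept. None passed in limma in either direction, and 6 had an unadjusted p under 0.05 (4 higher and 2 lower), where 28.7% of all kept probe sets had one. The groups did not overlap for 5 of the 12 genes on the higher side and 3 on the lower side, against 17.4% and 16.5% of all kept probe sets. The median log2 fold change was 0.12. TAPBP, the tapasin that loads peptides onto class I, had 1496, 1543 and 1742 in treated cells, against 1153, 1446 and 1112 in mock cells (0.37, adjusted p = 0.0509). B2M, the light chain of class I, averaged 7748 ± 1077 in treated and 6200 ± 520 in mock cells (SD, n = 3 each; 0.32, adjusted p = 0.0753). Both were without overlap on the higher side, as were the class I heavy chains HLA-C (0.23, adjusted p = 0.0580) and HLA-E (0.28, adjusted p = 0.148) and PDIA3, a chaperone of peptide loading (0.11, adjusted p = 0.358). Without overlap on the lower side were ERAP1, a peptidase that trims class I peptides (-0.34, adjusted p = 0.136), CANX, the chaperone calnexin (-0.14, adjusted p = 0.207), and the interferon-stimulated gene ISG15 (-0.28, adjusted p = 0.130). IRF1, an interferon-induced regulator of PSMB8 and PSMB9, was close to equal at 340 ± 0.663 in treated and 352 ± 46.8 in mock cells (SD, n = 3 each). GBP1, of the same list, was on the higher side with overlap (0.35, adjusted p = 0.183). The filter left out IFIT1 and MX1. IFIT1 averaged 112 ± 27.2 in treated and 54.0 ± 20.9 in mock cells, higher without overlap. MX1 averaged 82.3 ± 24.8 in treated and 74.2 ± 19.6 in mock cells, with overlap (SD, n = 3 each).

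**Figure D4:**
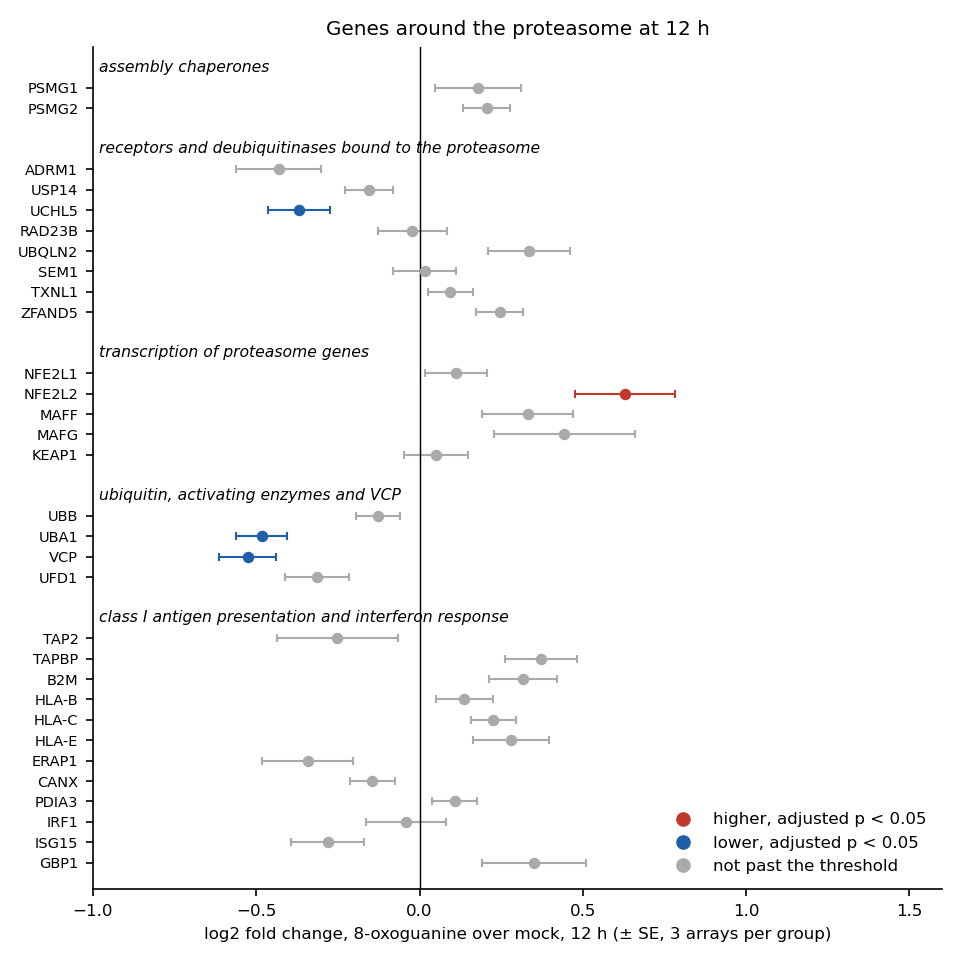
Log2 fold change at 12 h, 8-oxoguanine over mock, of the kept genes of the 5 pathway lists (points, limma estimate; bars, ± 1 SE; 3 arrays per group). NFE2L2 (0.63) is the gene past the threshold on the higher side, and UBA1 (-0.48), VCP (-0.53) and UCHL5 (-0.37) are those on the lower side.

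At 6 h there was 1 array per treatment, so no test was possible and the ratios have no replicate check. Probe sets below the 50th percentile of mean log2 signal (a signal of 148) were left out, which kept 11108 and 36 of the 37 proteasome proteins. None of the 36 reached 1.5-fold in either direction, where 3.32% of all kept probe sets were at least 1.5-fold higher and 5.44% at least 1.5-fold lower. The log2 ratio was above 0 for 26 of the 36 (72.2%, against 45.6% of all kept probe sets), with a median of 0.17 beside -0.03 over all of them. The median was 0.16 over 13 core genes, 10 of them above 0, and 0.28 over 14 regulatory particle genes, 11 of them above 0.

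Bright probe sets as a whole read higher on the treated 6 h array. The highest signal of any probe set was 22762 in treated and 10699 in mock cells, and among the 2222 brightest kept probe sets (signals over 1589) the median log2 ratio of all genes was 0.14. They included 25 of the 36 proteasome genes, with a median of 0.23. After quantile normalization the median of all genes in the same range was 0.02 and that of the 25 proteasome genes in it 0.17. The 9 proteasome genes with signals from 761 to 1589 had a median of -0.08 as deposited, beside -0.05 over all genes in that range. After quantile normalization these medians were -0.004 and 0.03. The 12 fibroblast markers, many of them very bright, had a median log2 ratio of 0.55 at 6 h, with VIM, the vimentin gene, at 18227 in treated and 7375 in mock cells. The part of this brightness difference in the 6 h ratios was not tested further.

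The highest 6 h ratios were those of PSMC3, an ATPase of the base, with a signal of 2821 in treated and 2063 in mock cells (log2 ratio 0.45), PSMB1, a core subunit, with 6294 in treated and 4611 in mock cells (0.45), and PSMA7, of the alpha ring, with 3379 in treated and 2704 in mock cells (0.32). The lowest were those of PSMD5, with 900 in treated and 1280 in mock cells (-0.51), PSMD3, of the lid, with 1090 in treated and 1469 in mock cells (-0.43), and PSMC6, an ATPase, with 1308 in treated and 1621 in mock cells (-0.31). Several 6 h probe sets were kept for 14 of the genes, and in 6 of these they differed in sign. For PSMA7 the probe set that the 12 h arrays carry had a log2 ratio of -0.34, and for PSMA1 the brightest had -0.17 and that of the 12 h arrays 0.15. The other genes with both signs were PSMD12 (0.12 and -0.28), PSMF1 (0.29 and -0.27), PSME3 (from -0.26 to 0.05) and PSME4 (from -0.27 to 0.10). The PSME3 probe set of the 12 h arrays had 407 in treated and 395 in mock cells at 6 h (0.04). The brightest PSME3 probe set had 2054 in treated and 2160 in mock cells.

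The catalytic core subunits PSMB5 (0.10), PSMB6 (0.06) and PSMB7 (0.16) had log2 ratios close to 0 at 6 h. Of the immunoproteasome, PSMB8 had 326 in treated and 320 in mock cells (0.03), PSMB10 had 176 in treated and 182 in mock cells (-0.05), and PSME1 had 1557 in treated and 1309 in mock cells (0.25). PSMB9, at 102 in treated and 100 in mock cells, was below the limit. PSME3 (-0.07) and PSME4 (0.01), which encodes a large single-chain activator and was on the 6 h arrays alone, were close to equal by their brightest probe sets, and other probe sets of both read as low as -0.26 and -0.27. PSMF1 (0.29 by its brightest probe set, -0.27 by the other), PSMD9 (0.28) and PSMD10 (-0.11) were the other regulators and chaperones. Among the pathway genes past the threshold at 12 h, UBA1 had 4359 in treated and 3636 in mock cells at 6 h (0.26), and VCP had 3989 in treated and 3586 in mock cells (0.15). NFE2L2, at 2787 in treated and 2911 in mock cells (-0.06), and UCHL5, at 1194 in treated and 1278 in mock cells (-0.10), had ratios slightly below 0.

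Set side by side, 6 h and 12 h gave opposite signs for several genes. The 12 genes of the core particle kept at both times had a median log2 ratio of 0.17 at 6 h and -0.17 at 12 h. The 13 genes of the regulatory particle kept at both had 0.27 at 6 h and -0.21 at 12 h. The 3 immunoproteasome genes kept at both had 0.03 at 6 h and 0.45 at 12 h. Each of these medians is the value of a single gene, PSMB8 at 6 h and PSME1 at 12 h. PSMB10 was below 0 at both times (-0.05 at 6 h and -0.09 at 12 h). Of the 10 members past the threshold at 12 h, PSMA3, PSMA5, PSMC1, PSMD1, PSMD2 and PSMD14 had a positive ratio at 6 h and a negative one at 12 h. The share of all genes with such opposite signs was not computed, and bright probe sets as a whole read higher at 6 h. PSMD5 was lower in treated cells at both times (-0.51 at 6 h and -0.44 at 12 h), and PSME1 higher at both (0.25 at 6 h and 0.45 at 12 h). Time, array type and number of arrays differ together between the 6 h and the 12 h values and cannot be told apart, and the difference was not tested.

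**Figure D5:**
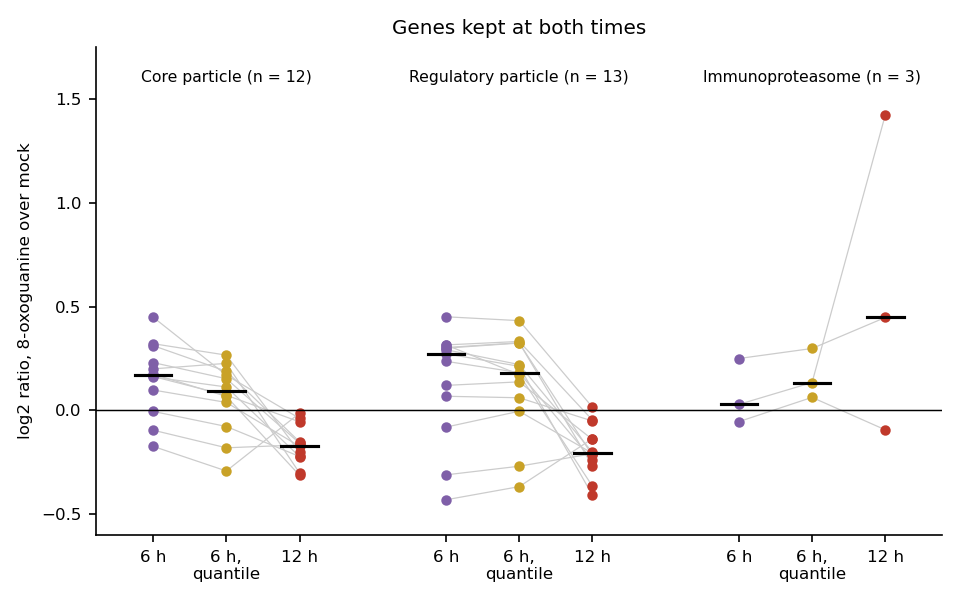
Log2 ratio, 8-oxoguanine over mock, of the genes kept at both times (points, genes, joined by grey lines; black bars, medians), at 6 h as deposited, at 6 h after quantile normalization and at 12 h. The core median is 0.17, 0.09 and -0.17, and that of the regulatory particle 0.27, 0.18 and -0.21. That of the 3 immunoproteasome genes, each time the value of a single gene, is 0.03, 0.13 and 0.45.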

How the data were processed

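Biotin-labelled RNA of MRC5 cells was hybridised to single-colour arrays. Per the submitters' processing notes, MAS5 produced the deposited intensity of each probe set, with settings not given in the sources used here. Trimmed by 2% at each end, the 8 array means ranged from 499.88 to 499.92. Array medians lay between 143 and 165. The number of arrays limits the precision. The treatment protocol names 6 h for all samples, and the time label was followed.

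Log2 of the deposited intensity was taken with no further scaling, and control probe sets were left out. Gene names came from the platform annotation and were compared with RefSeq (GRCh38.p14), which changed 0. At 12 h, 7840 probe sets had 1 symbol, 388 several and 518 none, and at 6 h 19064, 1043 and 2108. The test at 12 h ran in R 4.3.3 with limma 3.58.1 (lmFit, eBayes with an intensity trend), two-sided, and the procedure was tested on simulated data. The 6 h values were not tested.

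The named genes were members past the threshold, the 3 highest and 3 lowest at each time, immunoproteasome and catalytic subunits, the base chaperones, PSME3, PSME4, PSMF1 and up to 4 genes past the threshold per pathway list. Members written with values outside these were chosen after their values were seen. The members and lists were chosen with earlier results of these data known. Same-numbered 12 h arrays did not deviate together (correlations 0.08, -0.15 and -0.05). The alternatives were median centring, quantile normalization, other filters, a constant before log2, no intensity trend, a replicate block, averaging the probe sets of a gene, and each array left out. At 6 h, the probe set of the 12 h arrays was added after seeing the data.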

Additional observations from a re-analysis of the deposited data

Results flagged for a closer look

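For 6 genes the direction at 12 h, in which every treated array was on the lower side of every mock array, was opposite to that of the single pair of arrays at 6 h. At 12 h, 16.5% of all kept probe sets lay lower without overlap, and the share of all genes with opposite signs was not computed. All 6 genes were among the 2222 brightest kept probe sets at 6 h. The median log2 ratio of those was 0.14 as deposited and 0.02 after quantile normalization. The part of this brightness difference in the ratios was not tested. PSMD14 had a log2 ratio of 0.27 at 6 h and -0.41 at 12 h, PSMD2 had 0.32 at 6 h and -0.36 at 12 h, and PSMD1 had 0.30 at 6 h and -0.27 at 12 h. PSMC1 had 0.24 at 6 h and -0.24 at 12 h, PSMA5 had 0.20 at 6 h and -0.30 at 12 h, and PSMA3 had 0.17 at 6 h and -0.31 at 12 h. Each 6 h ratio stayed above 0 with quantile normalization. Median centring raised every 6 h ratio by the same amount, so it could not turn these below 0. For all of these genes but PSMD1, the probe set of the 12 h arrays was the one already used. For PSMD1 the 6 h value came from another probe set than the 12 h value. The probe set of the 12 h arrays gave 0.13 for it at 6 h. No test was made of 6 h against 12 h, so the difference was not tested.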

How the results depend on the processing

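The count of proteasome genes higher at 12 h was 2, and it was 1 with no filter, with a filter at the 60th percentile and with no intensity trend (1 to 2 with 1 array left out). The filter at the 60th percentile removed PSMB8, PSMB9 and PSMB10. The count of genes lower was 8, and it was 5 with quantile normalization, 4 with no filter, 2 with no intensity trend and 4 with the replicate number as a block, and 10 with the filter at the 60th percentile, where PSMB2 and PSMC2 passed (1 to 5 with 1 array left out). The block left 2 genes higher. With 1 array left out, the core median lay between -0.21 and -0.14, the regulatory particle median between -0.23 and -0.19 and the immunoproteasome median between 0.36 and 0.42. The immunoproteasome median was 0.45 with the filter at the 60th percentile.

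At 6 h, median centring gave medians of 0.28 (core), 0.40 (regulatory particle) and 0.14 (immunoproteasome), and quantile normalization 0.073, 0.20 and 0.13. The regulatory particle median was 0.23 when probe sets of a gene were averaged and 0.24 with the probe set of the 12 h arrays. The immunoproteasome median was 0.25 with a filter at the 70th percentile. All medians kept their direction in these settings.

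Genes near 0 at 12 h changed sign. PSMC3 was -5.0e-05 with median centring, and -0.11 to 0.15 with 1 array left out. The ranges with 1 array left out were -0.072 to 0.083 for PSMA1, -0.18 to 0.053 for PSMB1, -0.19 to 0.075 for PSMB10, -0.10 to 0.019 for PSMD8 and -0.10 to 0.034 for PSMF1. The causes were not tested. Near the background, signals limit what can be read: on mock array 2, PSMB8 was at 57, below the filter limit of 93.9.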
